A study of Mus musculus with 9 samples.

Results

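Atg9b, Syt8, Grhl3, Bmp8b and Ms4a10 are 5 genes that were nearly silent in unirradiated mouse colon and were among those with the largest increases after irradiation. They were chosen by exactly those values, their near-zero level in Con and their increase in IR, from a table of 33539 genes, 19174 of which had enough counts to be tested. All 5 passed that filter, which their irradiated libraries were enough to meet. Their levels in IR against Con are therefore a description with no test.

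The libraries hold poly(A) RNA of whole colon, each from a different wild-type male of the C57BL/6 strain, with 3 animals to a group and tissue taken at 84 h. In the IR+CF-2 group 13 Gy was combined with CF-2, injected intraperitoneally at 7.5 mg/kg on 4 occasions, at 1 h ahead of the exposure and then at 24, 48 and 72 h. IR mice received 13 Gy alone. Con mice were not irradiated and received saline by the design text or PBS by the sample labels. The compound is known here by its code alone, and the study's title speaks of agonism at cannabinoid receptor CB2. No group received CF-2 without irradiation, and no vehicle injection is given for IR mice. The labels disagree on the age (8 or 6 weeks) and on whether the abdomen or the whole body was irradiated. Libraries keep the numbers of their labels (IR+CF-2 1 to 3, IR 2 to 4, Con 2 to 4).

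Library totals were 34.4 to 44.3 M counts. Colon epithelial markers were abundant in all groups, with 26272 to 31327 CPM summed over 15 genes in IR+CF-2, 33985 to 45488 CPM in IR and 35799 to 42333 CPM in Con. CPM is counts per M counts of the library, scaled by TMM. IR 4 and IR+CF-2 2 stood apart from their groups: on the first principal component (38.6% of the variance) IR 4 lay at 23, IR 2 and IR 3 at -23 and -28.7 and Con between 59 and 67.3, and on the second (24.4%) the library IR+CF-2 2 had 95.2. Levels of the 5 genes are given by library for this reason. In whole tissue, more cells of a type and more RNA per cell cannot be told apart.

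The 5 genes belong to unrelated families. ATG9 proteins are membrane lipid scramblases that supply membrane to the growing autophagosome, and ATG9B is the more narrowly expressed of the mammalian pair. Synaptotagmins are membrane proteins of vesicle traffic. GRHL3 is a Grainyhead-like transcription factor of surface epithelia, known in mice for epidermal barrier formation, wound closure and neural tube closure. BMP8B is a secreted bone morphogenetic protein, a ligand of the TGF-beta superfamily known in mice for spermatogenesis and heat production in brown fat. MS4A10 is a member of the membrane-spanning MS4A family, whose best known protein is the B cell antigen CD20.

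On GRCm38, Atg9b lies at chr5:24384181-24392143 on the minus strand, Syt8 at chr7:142434850-142440396 on the plus strand, Grhl3 at chr4:135541888-135573630 on the minus strand, Bmp8b at chr4:123105165-123132099 on the plus strand and Ms4a10 at chr19:10962293-10974670 on the minus strand. Promoter sequences of all 5 are in the RefSeq table for GRCm38.p6, as 7 windows running from 250 bases before to 50 bases after a start site, 3 of them for Syt8. Windows were searched on both strands for a Grainyhead motif (AACNGGTT), an AP-1 motif (TGANTCA), a TEAD motif (GGAATG) and a single copy of the p53 motif. A full p53 element pairs such copies and was not searched. The sole match in the 7 windows was an AP-1 motif in Syt8, shown in capitals. It overlapped no other motif searched. The windows of Atg9b, which had the largest increase of the 5, and of Syt8 are shown 5' to 3' on the gene's own strand, at chr5:24392094-24392393 (minus strand) and chr7:142434600-142434899 (plus strand).
Atg9b: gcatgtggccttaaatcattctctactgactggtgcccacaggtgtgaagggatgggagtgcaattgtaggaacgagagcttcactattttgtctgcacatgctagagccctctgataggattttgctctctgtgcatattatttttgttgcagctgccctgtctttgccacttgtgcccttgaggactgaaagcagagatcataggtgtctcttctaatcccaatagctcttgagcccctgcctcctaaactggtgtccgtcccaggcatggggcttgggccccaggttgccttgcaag
Syt8: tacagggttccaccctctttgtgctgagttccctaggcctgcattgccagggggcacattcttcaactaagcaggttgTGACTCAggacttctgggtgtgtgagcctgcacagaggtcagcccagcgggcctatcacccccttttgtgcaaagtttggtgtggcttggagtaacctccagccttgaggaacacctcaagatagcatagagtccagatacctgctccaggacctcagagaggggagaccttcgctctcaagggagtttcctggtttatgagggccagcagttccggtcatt
Among all 32851 promoter windows of the table, 2.09% hold the Grainyhead motif, 7.81% the AP-1 motif, 14.7% the TEAD motif and 8.36% a single copy of the p53 motif. A match is a string of letters and not a shown binding site.

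Atg9b had the largest change. It was at 58.3, 12.0 and 64.3 CPM in IR+CF-2 1, 2 and 3, 79.8, 103 and 11.0 CPM in IR 2, 3 and 4, and 0.725, 0.46 and 0.565 CPM in Con 2, 3 and 4. All 6 irradiated libraries lay above all 3 Con libraries, and the lowest of them, IR 4, was still 15.2 times the highest Con library. The irradiated libraries fell apart among themselves, with IR 4 and IR+CF-2 2 low and the other 4 high. The mean was 64.6 ± 47.8 CPM in IR and 0.583 ± 0.134 CPM in Con (SD, n = 3 each), a ratio of 111 and a fitted log2 fold change of 6.78, the sixth largest of all tested genes.

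Syt8 had 35.9, 26.3 and 49.1 CPM in IR+CF-2 1, 2 and 3, 17.7, 32.2 and 6.09 CPM in IR 2, 3 and 4, and 0.484, 0.741 and 1.16 CPM in Con 2, 3 and 4. It was the single member with a higher mean in IR+CF-2 than in IR, at 37.1 ± 11.4 against 18.6 ± 13.1 CPM (SD, n = 3 each), but IR 3 lay above IR+CF-2 2 and the groups overlapped. IR 4 was the lowest irradiated library here too, at 5.27 times the highest Con library.

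Grhl3 had the lowest mean FPKM of the 5 in each group. It was at 7.54, 6.2 and 5.36 CPM in IR+CF-2 1, 2 and 3, 8.21, 9.3 and 2.09 CPM in IR 2, 3 and 4, and 0.387, 0.358 and 0.215 CPM in Con 2, 3 and 4. In raw reads, Con held 16, 14 and 8 counts of it. The IR+CF-2 libraries lay close together, the highest at 1.41 times the lowest, and all inside the range of IR. IR 4 was again the lowest of the irradiated libraries.

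Bmp8b had 31.7, 6.85 and 27.6 CPM in IR+CF-2 1, 2 and 3, 31.9, 38.4 and 10.3 CPM in IR 2, 3 and 4, and 1.5, 1.89 and 0.78 CPM in Con 2, 3 and 4. Its irradiated libraries split as those of Atg9b did, with IR+CF-2 2 and IR 4 low, but here IR+CF-2 2 was the lowest, at 3.62 times the highest Con library.

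Ms4a10 had 6.59, 16.3 and 9.77 CPM in IR+CF-2 1, 2 and 3, 13.6, 17.4 and 4.17 CPM in IR 2, 3 and 4, and 0.846, 0.307 and 1.02 CPM in Con 2, 3 and 4. In contrast to Atg9b and Bmp8b it was highest in IR+CF-2 2 among the IR+CF-2 libraries, and lowest in IR 4 among all irradiated ones.

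**Figure D1:**
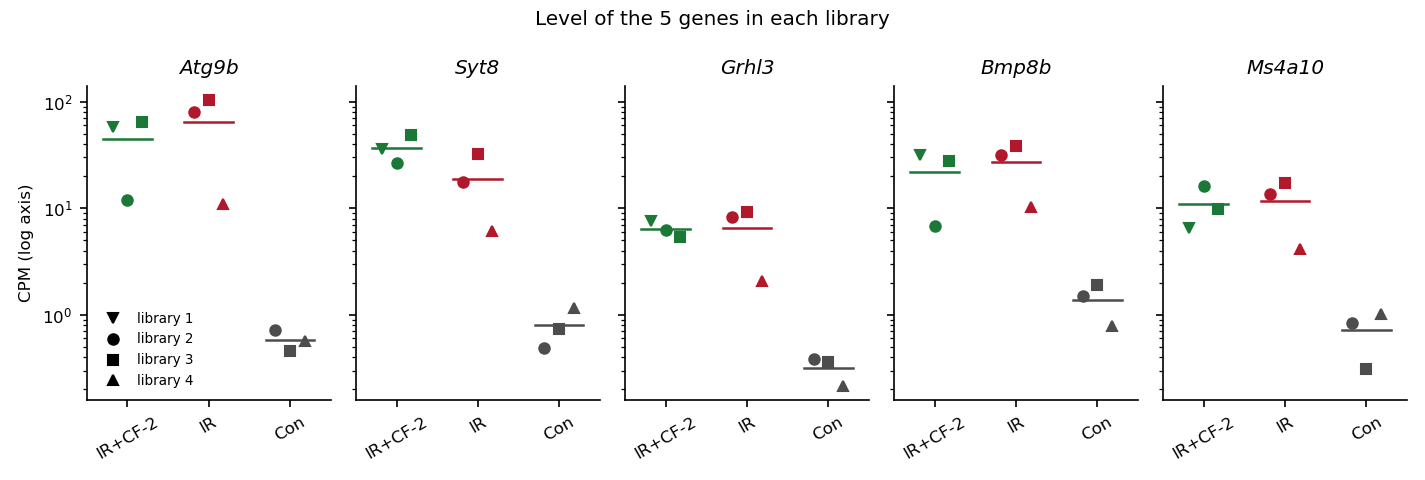
Level of each gene in CPM (vertical, log axis) in the IR+CF-2, IR and Con libraries. Each point is a library, with its label number given by the marker, and the line is the group mean. All irradiated libraries lie above all Con libraries in each panel, IR 4 lies low within IR, and IR+CF-2 2 lies low for Atg9b (12.0 CPM) and Bmp8b (6.85 CPM) but high for Ms4a10 (16.3 CPM).

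The means of Grhl3, Bmp8b and Ms4a10 in IR were 20.4, 19.3 and 16.2 times those in Con, and that of Syt8 23.5 times. Fitted log2 fold changes of IR over Con were 4.56 for Syt8, 4.33 for Grhl3, 4.27 for Bmp8b and 4.01 for Ms4a10. Ranked by that change, the members stood at places 6, 27, 33, 36 and 47 among 19174 genes. Of all tested genes 3.21% passed the test in IR against Con (2.37% higher and 0.845% lower), 23.9% had an unadjusted p under 0.05, and 22.6% had all IR libraries above all Con libraries. At or above the smallest member's change and the lowest member's IR level there were 11 genes. Among the others were Ly6g, Mmp7, Slc4a11, Ido1 and Csta1, and just outside lay Pnliprp2, Eda2r and Mmp12.

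Shared between the 5 genes was the low value of IR 4. The mean of IR 2 and IR 3 was 8.27 times IR 4 for Atg9b, 4.09 times for Syt8, 4.2 times for Grhl3, 3.43 times for Bmp8b and 3.72 times for Ms4a10. Some other signals were low in IR 4 too, and others were high. The summed level of 20 p53 target genes was 1504 CPM there, against 1951 and 2168 CPM in IR 2 and IR 3 and 1114 to 1183 CPM in Con. Summed neutrophil markers (10 genes) were 16.2 CPM in IR 4, 76.9 and 78.2 CPM in IR 2 and IR 3 and 2.37 to 4.28 CPM in Con. Ly6g alone made up most of the neutrophil sum in IR, with a mean of 52.4 CPM there and 1.02 CPM in Con. Smooth muscle markers were 1432 CPM in IR 4 against 3421 and 2009.6 CPM in IR 2 and IR 3. Higher in IR 4 than in IR 2 and IR 3 were proximal colon markers (4617 against 2075 and 2840.4 CPM) and colon epithelial markers (45488 against 36264 and 33985 CPM). Of the p53 targets 12 of 20 rose in IR against Con and 14 in IR+CF-2 against Con, where 1 fell, Sesn1 (2.37% and 11.2% of all genes rose). By edgeR, the 12 fell to 4 without IR+CF-2 3, to 2 with a position term (log2 CPM of Hoxa13) and to 0 without IR 2, IR 3, Con 2, Con 3 or Con 4, where 12 to 15 had an unadjusted p under 0.05. With the position term 0 passed in IR+CF-2 against Con, where 14 had an unadjusted p under 0.05. That term can hardly be told apart from the group there, since Hoxa13 was highest in the IR+CF-2 libraries. Of 8 neutrophil markers tested, 1 rose in IR against Con and 8 in IR+CF-2 against Con, beside the same 2.37% and 11.2%. The part of any of these lists in the members' values was not tested.

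The members parted over IR+CF-2 2. The mean of IR+CF-2 1 and IR+CF-2 3 was 5.11 times IR+CF-2 2 for Atg9b and 4.33 times for Bmp8b, but 1.62 times for Syt8, 1.04 times for Grhl3 and 0.502 times for Ms4a10. Markers of distal colon, a list of 11 genes, also set this library apart, with a summed level of 1897 CPM in IR+CF-2 2, 338 and 399 CPM in the other IR+CF-2 libraries, 18.8 to 30.7 CPM in IR and 24.9 to 133 CPM in Con. Proximal colon markers were higher there than in IR+CF-2 1 and 3, at 2739.8 CPM against 1034 and 1127 CPM. They were 2075 to 4617 CPM in IR and 3133 to 4443 CPM in Con. Pancreas markers were at 150.4 CPM in IR+CF-2 2 against 20.6 and 22.5 CPM. In IR they were 29.0 to 48.0 CPM and in Con 36.0 to 49.3 CPM. Of that list of 10 genes, 7 were found and 2 had enough counts to be tested. Small intestine markers lay between, at 133 CPM in IR+CF-2 2 against 81 and 249 CPM. They were 611 to 691 CPM in IR and 236 to 419 CPM in Con. Hoxa13, a distal gene, ranged over 56.8 to 74.9 CPM in IR+CF-2, 0.834 to 2.73 CPM in IR and 1.05 to 43.2 CPM in Con. Within Con it was 43.2, 1.05 and 8.07 CPM in Con 2, 3 and 4. All IR+CF-2 libraries thus lay above all IR and Con libraries, so a Hoxa13 term can hardly be told apart from the IR+CF-2 group. A list of 19 genes of regenerative and fetal-like epithelium was low in the libraries where Atg9b and Bmp8b were low, with a summed level of 2886 CPM in IR+CF-2 2 against 4971 and 4073 CPM in IR+CF-2 1 and 3, and 2076 CPM in IR 4 against 3413 and 4427 CPM in IR 2 and 3. In Con it was 1629 to 2043 CPM. The part of position along the colon, or of such cells, in the members' levels was not tested.

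Several members are best known from stratified epithelia or other organs, so markers of stratified squamous epithelium were read beside them. Of 18 such genes, 17 were in the table, with a summed level of 60.5 to 85 CPM in IR+CF-2, 62.7 to 71.4 CPM in IR and 38.9 to 46.4 CPM in Con. Pkp1, a desmosome gene, made up most of each sum, at 43.4 to 57.7 CPM in IR+CF-2, 42.6 to 51.7 CPM in IR and 31.5 to 39.1 CPM in Con. The keratin Krt4 was at 0.999 to 6.54 CPM in IR+CF-2, 0.445 to 6.3 CPM in IR and 0.0484 to 0.153 CPM in Con, and Krt15 at 3.26 to 5.21 CPM in IR+CF-2, 2.06 to 6.36 CPM in IR and 0.511 to 0.846 CPM in Con. The log2 fold change of IR over Con was 5.33 for Krt4 and 6.70 for Krt6a, which had 0 counts in Con, so that the second depends on the prior count. The basal keratin Krt5 was at 0.431 to 0.904 CPM in IR+CF-2, 0.0556 to 1.01 CPM in IR and 0 to 0.269 CPM in Con, and the basal regulator Trp63 reached at most 0.575 CPM in any library. Of the 11 genes tested, 2 (Krt4 and Krt15) rose in IR against Con and 7 in IR+CF-2 against Con (2.37% and 11.2% of all genes rose). The part of such cells in the members' levels was not tested.

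Per unit length, which allows genes to be compared, the order of mean FPKM in IR was Atg9b 16.3 ± 12.1, Ms4a10 11.5 ± 6.85, Syt8 9.76 ± 6.84, Bmp8b 6.88 ± 3.89 and Grhl3 2.33 ± 1.43 (SD, n = 3). Each of these differed from the next by less than its SD, apart from Bmp8b and Grhl3. In IR+CF-2 the order was Syt8 20.5 ± 6.33, Atg9b 11.9 ± 7.56, Ms4a10 11.3 ± 5.19, Bmp8b 5.93 ± 3.57 and Grhl3 2.39 ± 0.399. There Atg9b differed from Ms4a10, and Bmp8b from Grhl3, by less than its SD. In Con all 5 had means under 1 FPKM, from 0.112 ± 0.033 for Grhl3 to 0.71 ± 0.38 for Ms4a10.

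The first comparison to use data outside the choice of the members is IR+CF-2 against IR, which asks whether irradiated colon of CF-2-treated mice held different levels. It shares the IR libraries with the rule that chose the genes. Because the rule took genes that were high in those IR libraries, the estimates lean towards a fall in IR+CF-2. The p-values and intervals share that lean. None of the 5 passed the test (0 of 5 by edgeR's quasi-likelihood test, 0 of 5 by DESeq2 and 0 of 5 by limma-voom), where 0.302% of all genes did, and 0 of 5 had an unadjusted p under 0.05, where 14.6% of all genes did. The log2 fold change of Syt8 was 0.99 ± 0.53 (SE), with a 95% interval from -0.20 to 2.18 and an edgeR adjusted p of 0.424. For Atg9b it was -0.53 ± 0.75 with an interval from -2.23 to 1.18, and for Bmp8b -0.28 ± 0.61 with an interval from -1.66 to 1.09. Grhl3 and Ms4a10 had values nearest 0, at -0.04 ± 0.48 (interval -1.12 to 1.04) and -0.11 ± 0.56 (interval -1.38 to 1.16). These intervals leave room for differences of 2-fold or more in at least 1 direction for each gene, so they do not show that CF-2 left the levels alone. With 1 library left out the sign of Atg9b, Grhl3, Bmp8b and Ms4a10 turned in some fits, while Syt8 lay between 0.57 and 1.71 in the 18 alternatives run. Larger moves came with the position term, to -1.67 for Atg9b, -0.66 for Grhl3 and -2.07 for Ms4a10, and with the library number as a block, to -1.3 for Atg9b and -1.18 for Bmp8b. Hoxa13 was higher in all IR+CF-2 than in all IR libraries, so the position term does not separate position from group.

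**Figure D2:**
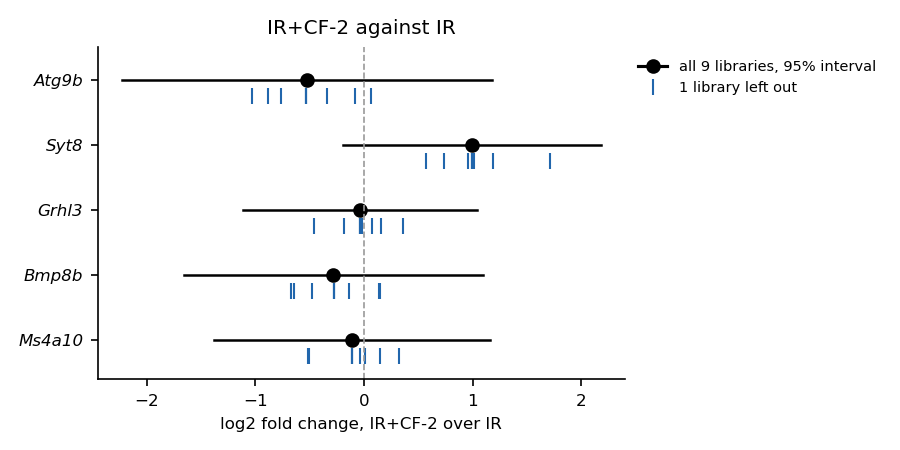
Log2 fold change of IR+CF-2 over IR for each gene (horizontal). Points are the estimates from all 9 libraries with 95% intervals as lines, and ticks are the estimates with 1 library left out. All 5 intervals include 0, and Syt8 has the highest estimate, at 0.99.

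IR+CF-2 against Con shares the Con libraries with the rule. For each gene all 3 IR+CF-2 libraries lay above all 3 Con libraries. Of all genes 19.2% passed the test (11.2% higher and 7.95% lower) and 20.1% had IR+CF-2 wholly above Con. Since the rule chose genes near 0 in these same Con libraries, the differences are a description too, with no test. The log2 fold changes were 6.25 ± 0.99 for Atg9b, 5.55 ± 0.65 for Syt8, 4.30 ± 0.57 for Grhl3, 3.98 ± 0.70 for Bmp8b and 3.90 ± 0.65 for Ms4a10 (SE). The ratios of means were 76.9, 46.7, 19.9, 15.9 and 15.0 in the same order. With log2 CPM of Hoxa13 as a position term the log2 fold changes were 5.6 for Atg9b, 5.56 for Syt8, 3.91 for Grhl3, 4.05 for Bmp8b and 2.8 for Ms4a10. Position and group are not separated by these values, since Hoxa13 was also higher in all IR+CF-2 than in all Con libraries.

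Relatives of each member were read in the same libraries. Atg9a, the widely expressed partner, had 29.7 ± 4.15 CPM in IR+CF-2, 38.0 ± 5.5 CPM in IR and 41.0 ± 1.93 CPM in Con (SD, n = 3), and no comparison called it. In summed FPKM of the pair, Atg9b made up 77.3, 34.9 and 74.8% in IR+CF-2 1, 2 and 3, 76.1, 81.9 and 26.8% of it in IR 2, 3 and 4, and 1.61 to 2.64% in Con. Among 32 other autophagy genes, edgeR called 0 in IR against Con (2 at an unadjusted p under 0.05, 0 by DESeq2 and 0 by limma-voom) and 0 in IR+CF-2 against IR (5 at an unadjusted p under 0.05, 0 by both other tools). Over all genes edgeR called 3.21% and 0.302% in these comparisons, with 23.9% and 14.6% at an unadjusted p under 0.05. Against Con, IR+CF-2 had 4 lower, namely the initiation factors Rb1cc1 (-0.41 ± 0.12) and Atg14 (-0.58 ± 0.15), the phosphoinositide-binding Wipi2 (-0.35 ± 0.10) and Atg12 of the ATG8 conjugation system (-0.66 ± 0.13), log2 with SE, beside 7.95% of all genes lower. The calls were kept in 7, 9, 7 and 12 of 18 alternatives in that order. The median of the list was -0.07, -0.19 and -0.2 in IR against Con, IR+CF-2 against IR and IR+CF-2 against Con, where the medians of all genes were 0.01, 0.02 and 0.02.

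Syt8 made up 54.1, 34.1 and 61.6% of the summed FPKM of 17 synaptotagmins in IR+CF-2 1, 2 and 3, 28.4, 48.6 and 16.1% of it in IR 2, 3 and 4, and 1.09 to 3.06% in Con. It was the highest synaptotagmin in all IR+CF-2 libraries and in IR 2 and IR 3. Syt7, a calcium sensor of exocytosis, was the highest in IR 4 and in Con and was called in no comparison. Of 20 other genes of that family, Syt12 alone rose in IR against Con, by 2.17 ± 0.37 (log2, SE, adjusted p = 0.0304), a call kept in 10 of 18 alternatives. Between IR+CF-2 and IR no gene of the list passed by edgeR (4 at an unadjusted p under 0.05, 1 by DESeq2, 0 by limma-voom). Over all genes edgeR called 3.21% in IR against Con and 0.302% in IR+CF-2 against IR (14.6% at an unadjusted p under 0.05). Against Con, in IR+CF-2, Syt12 rose by 1.80 ± 0.37 and the synaptotagmin-like Sytl3 fell, at -2.02 ± 0.38, calls kept in 14 and 15 of 18 alternatives beside 19.2% of all genes called.

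Grhl3 took 32.0, 29.2 and 25.5% of the summed FPKM of Grhl1, Grhl2 and Grhl3 in IR+CF-2 1, 2 and 3, 30.4, 32.7 and 9.27% of it in IR 2, 3 and 4, and 1.27 to 2.28% in Con. Grhl2, the main Grainyhead-like gene of simple epithelia, was at 40.1 ± 3.81 CPM in IR+CF-2, 48.4 ± 4.14 CPM in IR and 50.7 ± 7.38 CPM in Con, and neither it nor Grhl1 was called. Of 18 family members and reported epithelial targets, the tight junction gene Cldn4 rose in IR against Con (2.47 ± 0.42, adjusted p = 0.0304, 287 ± 150.3 CPM in IR and 52.0 ± 11.0 CPM in Con), a call kept in 10 of 18 alternatives. By edgeR none passed in IR+CF-2 against IR (6 at an unadjusted p under 0.05, 2 by DESeq2, 0 by limma-voom). The edgeR shares over all genes were 3.21% in IR against Con and 0.302% in IR+CF-2 against IR (14.6% at an unadjusted p under 0.05). Relative to Con, in IR+CF-2 the crosslinking enzyme Tgm1 (2.45 ± 0.66) and Cldn4 (1.35 ± 0.40) rose, and Arhgef19 (-1.66 ± 0.35) and Cldn3 (-0.67 ± 0.14) fell, where 19.2% of all genes were called. These calls were kept in 9, 8, 13 and 12 of 18 alternatives in that order. The median of the list was -0.03, -0.24 and -0.2 in the 3 comparisons.

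Bmp8b made up 14.4, 2.69 and 15.8% of the summed FPKM of 14 BMP ligands in IR+CF-2 1, 2 and 3, 19.3, 26.1 and 7.87% of it in IR 2, 3 and 4, and 0.698 to 1.15% in Con. Its closest paralog, Bmp8a, had 3.11 ± 0.906 CPM in IR+CF-2, 5.04 ± 0.552 CPM in IR and 3.49 ± 0.984 CPM in Con and was not called. The genes are alike in sequence, and how reads that map to both were counted is not given, so their split is uncertain. In IR against Con, none of the 10 other ligands tested, the 8 receptors or the 8 genes of a BMP response list passed by edgeR (0, 0 and 2 at an unadjusted p under 0.05, and none by DESeq2 or limma-voom). Of 10 antagonists and inhibitors, the decoy receptor Bambi rose (0.99 ± 0.18, adjusted p = 0.0353, kept in 9 of 18 alternatives) and the inhibitory Smad6 fell (-1.32 ± 0.25, adjusted p = 0.0355, kept in 11 of 18). Over all genes edgeR called 3.21% in this comparison (2.37% higher and 0.845% lower), with 23.9% at an unadjusted p under 0.05.

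In IR+CF-2 against IR, edgeR called none of these 36 BMP genes. At an unadjusted p under 0.05 there were 6 ligands, 3 receptors, 5 antagonists and 3 genes of the response list, DESeq2 called 3, 2, 1 and 1, and limma-voom none. The shares over all genes were 0.302% called by edgeR and 14.6% at an unadjusted p under 0.05. In IR+CF-2 against Con the ligands Bmp4 (1.28 ± 0.33) and Bmp7 (1.47 ± 0.44), the antagonist Grem1 (2.73 ± 0.71) and, from the response list, Id1 (1.00 ± 0.18) and Smad4 (0.72 ± 0.13) rose. Smad4, though on that list, is a mediator shared with TGF-beta signalling and not a BMP target. Bmp3 (-1.94 ± 0.52), the receptors Acvr1c (-1.92 ± 0.54) and Acvr2b (-0.83 ± 0.22), Smad6 (-0.88 ± 0.24) and Smad7 (-0.66 ± 0.20) fell. Beside these 10 of 36 genes, 19.2% of all genes were called. The rises were kept in 10, 6, 10, 15 and 17 of 18 alternatives in the order given, and the falls in 10, 9, 8, 10 and 8. Id1, the classical BMP target, had 233 ± 33.1 CPM in IR+CF-2, 123 ± 24.4 CPM in IR and 117 ± 10.5 CPM in Con, and it was called in IR+CF-2 against Con but neither in IR against Con (0.07 ± 0.17) nor in IR+CF-2 against IR (0.93 ± 0.18, adjusted p = 0.0704).

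Ms4a10 was a small part of its family throughout, at 2.22, 4.4 and 3.37% of the summed FPKM of 19 Ms4a genes in IR+CF-2 1, 2 and 3, 3.38, 3.43 and 1.0% of it in IR 2, 3 and 4, and 0.0765 to 0.293% in Con. Ms4a8a was the highest, at 245 ± 24.0 FPKM in IR+CF-2, 357 ± 43.4 FPKM in IR and 289.9 ± 25.7 FPKM in Con. Of 17 other members, Ms4a4b, expressed in T cells, fell in IR against Con (-3.32 ± 0.52, adjusted p = 0.0296, kept in 13 of 18 alternatives). None of these passed by edgeR between IR+CF-2 and IR (10 at an unadjusted p under 0.05, 8 by DESeq2, 0 by limma-voom). Over all genes edgeR called 3.21% in IR against Con and 0.302% in IR+CF-2 against IR (14.6% at an unadjusted p under 0.05). Against Con, in IR+CF-2, Ms4a6d (2.01 ± 0.47), Tmem176a (0.98 ± 0.16) and Tmem176b (0.77 ± 0.13) rose, and Ms4a1, which encodes CD20 (-2.13 ± 0.47), Ms4a4b (-1.66 ± 0.48) and Ms4a5 (-1.80 ± 0.51) fell, where 19.2% of all genes were called. These calls were kept in 13, 17, 17, 12, 8 and 6 of 18 alternatives in that order.

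**Figure D3:**
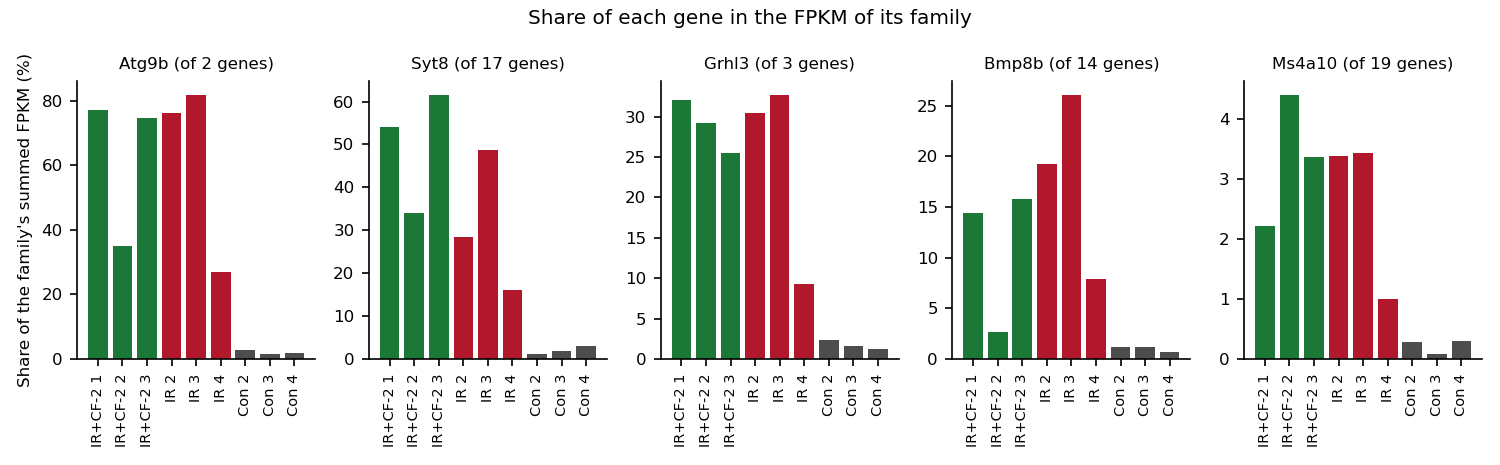
Share of each gene in the summed FPKM of its family (percent, vertical, from 0) in each library, with IR+CF-2 in green, IR in red and Con in grey. Atg9b held 26.8 to 81.9% of the Atg9 pair in irradiated libraries and at most 2.64% in Con, while Ms4a10 stayed at or under 4.4% of its family.

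Neighbouring genes on the chromosome were read in the same libraries. Nos3, the endothelial nitric oxide synthase gene, overlaps Atg9b on the opposite strand and shares 294 exon bases with it. It had 2.36, 4.05 and 1.68 CPM in IR+CF-2 1, 2 and 3, 1.97, 1.57 and 0.667 CPM in IR 2, 3 and 4, and 2.85, 1.15 and 1.75 CPM in Con 2, 3 and 4. These ranges overlap, and no comparison called Nos3 or Abcb8 on the other side of Atg9b. Whether the kit keeps strand is not stated, so reads in the shared bases cannot be told apart.

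Tnni2, a troponin gene of fast skeletal muscle, starts 1411 bases beyond Syt8 on the same strand. It had 6.52, 2.95 and 10.1 CPM in IR+CF-2 1, 2 and 3, 2.73, 4.65 and 1.33 CPM in IR 2, 3 and 4, and 0.266, 0.511 and 0.511 CPM in Con 2, 3 and 4. As with Syt8, all irradiated libraries lay above Con, IR 4 was the lowest of IR and IR+CF-2 3 the highest of all. Its log2 fold change was 2.75 ± 0.60 in IR against Con (adjusted p = 0.0471, kept in 7 of 18 alternatives), 1.17 ± 0.54 in IR+CF-2 against IR (0.365) and 3.92 ± 0.62 in IR+CF-2 against Con (0.0096, kept in 17 of 18). Ctsd, on the other side of Syt8, was called in no comparison. Its change was 0.62 ± 0.17 in IR against Con (adjusted p = 0.0707) and 0.52 ± 0.17 in IR+CF-2 against Con (0.0567).

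Within Bmp8b lies Oxct2b, on the same strand and with no shared exon bases, at 0.383 to 0.833 CPM in IR+CF-2, 0.278 to 0.787 CPM in IR and 0.0484 to 0.205 CPM in Con. Oxct2b rose in IR+CF-2 against Con (2.57 ± 0.67, adjusted p = 0.0307, kept in 11 of 18 alternatives) and did not pass in IR against Con (2.54 ± 0.67, adjusted p = 0.0679). Ppie, on the opposite strand with 133 shared exon bases, rose less in IR+CF-2 against Con (0.79 ± 0.20, adjusted p = 0.0275, kept in 10 of 18). In IR against Con it did not pass (0.69 ± 0.20, adjusted p = 0.0784). Gm17244, also on the opposite strand, shares 339 exon bases with Bmp8b and was called in no comparison. Its change in IR against Con was 2.66 ± 0.76 (adjusted p = 0.0798), on 1 to 4 counts in Con. Beside Ms4a10, Ccdc86 rose in IR+CF-2 against Con (1.37 ± 0.32, adjusted p = 0.0229, kept in 12 of 18) and Ms4a15 passed in no comparison. In IR against Con the change was 1.21 ± 0.32 for Ccdc86 (adjusted p = 0.0679) and 2.26 ± 0.54 for Ms4a15 (0.056). Ms4a15 had 0.45, 0.56 and 0.473 CPM in IR 2, 3 and 4, and 0.193, 0.0511 and 0.0538 CPM in Con 2, 3 and 4. Around Grhl3, neither Stpg1 nor Ifnlr1 was called.

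**Figure D4:**
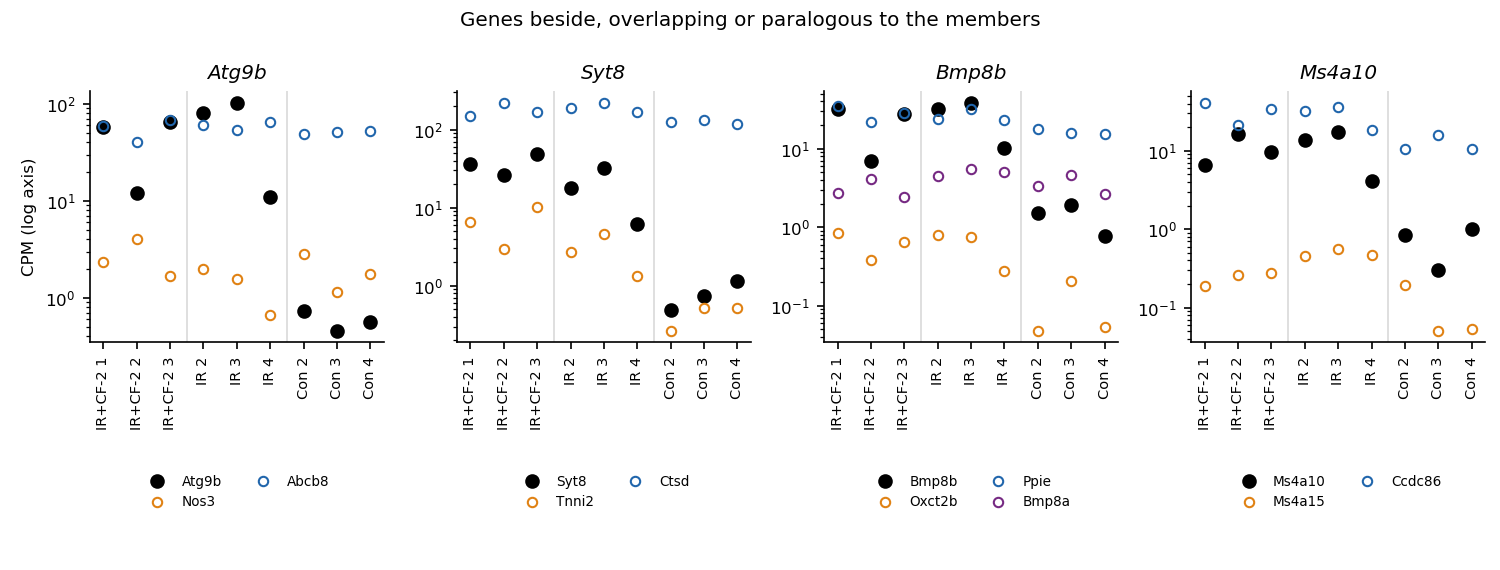
Level in CPM (vertical, log axis) of 4 members (filled) and of genes that overlap, adjoin or are paralogous to them (open) in the IR+CF-2, IR and Con libraries. Tnni2 follows the order of groups seen for Syt8, with all irradiated libraries at or above 1.33 CPM and Con at or under 0.511 CPM, while Nos3 overlaps between groups.

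The genes most alike to each member were ranked by the root mean square difference of mean-centred log2 CPM over the 9 libraries, among 15159 genes. Nearest to Grhl3 was Eda2r, a receptor of the TNF receptor family and a p53 target, at 0.29, followed by Ano3, Ddit4l, Slc25a48 and R3hdml. Eda2r was also nearest to Ms4a10, at 0.48, followed by Csta1, Psrc1, Ddit4l and the stress cytokine gene Gdf15. Eda2r had 27.9, 24.2 and 18.9 CPM in IR+CF-2 1, 2 and 3, 28.8, 27.9 and 8.95 CPM in IR 2, 3 and 4, and 1.74, 1.13 and 1.53 CPM in Con 2, 3 and 4. Its pattern shared with Grhl3 the level IR+CF-2 libraries and the low IR 4.

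Bmp8b and Atg9b had the same nearest gene, Arhgap40, at 0.35 and 0.89. Arhgap40 had 2.88, 0.527 and 3.23 CPM in IR+CF-2 1, 2 and 3, 3.15, 4.48 and 0.612 CPM in IR 2, 3 and 4, and 0 to 0.102 CPM in Con. Like both members it was low in IR+CF-2 2 and in IR 4. Next to Bmp8b came Slc25a48, Ntf5, Trim10 and Trex2, and among the next to Atg9b were Saxo1, Psapl1 and, at 1.07, Syt8. Nearest to Syt8 were Csta1 at 0.58, Nt5c1a, Ano3, Gdf15 and R3hdml. Among the members themselves the closest pair was Grhl3 and Bmp8b, at 0.64, and the farthest Atg9b and Ms4a10, at 1.45. All these values come from the same 9 libraries and are governed by the gap between Con and irradiated libraries. A smaller prior count in the log2 CPM left 3, 4, 4, 2 and 5 of the 5 nearest genes in place for Atg9b, Syt8, Grhl3, Bmp8b and Ms4a10.

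The calls of related genes in IR against Con rest on a comparison that was sensitive to single libraries. It called 454 genes higher and 162 lower, and with RLE scaling 173 higher and 104 lower. Without IR 2, IR 3, Con 2, Con 3 or Con 4, 1, 1, 1, 14 or 2 genes passed. In the same order 3997, 2645, 3149, 3962 or 3271 genes had an unadjusted p under 0.05 by edgeR, against 4591 with all libraries.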

How the data were processed

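Poly(A) mRNA-seq libraries (ABclonal kit, strandedness not stated) were made from colon. HISAT2, featureCounts and DESeq2 with builds GRCm38 and mm10 are named in the submitters' processing notes. The sources used here do not give versions, annotation release, strand setting or handling of multi-mapping reads. Per the file headers, the deposited table holds raw read counts per gene and the authors' FPKM. The FPKM length of each member equals its exon union in GENCODE M21, which gave the coordinates on GRCm38.

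The analysis of counts used edgeR 4.0.16 (R 4.3.3), with filterByExpr by group, TMM scaling and a 2-sided quasi-likelihood F-test (robust = TRUE) in 1 fit of the 9 libraries, group being its sole term. Benjamini-Hochberg adjustment ran over all 19174 tested genes, with a threshold of 0.05. The SE of a log2 fold change was derived as its absolute value over the square root of the F statistic. Intervals were built from that SE with a t quantile. FPKM was used to compare genes by length and for family shares, which were computed without any test. The steps were tested on simulated data. Each group holds 3 libraries of separate mice, with 34.4 to 44.3 M counts. In a library 3 counts were taken as the floor, and all members lay above it in all libraries. Such limits cover counting error only.

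The members and gene lists were chosen with earlier results of these data known. Named genes are the members, their paralogs, their neighbours in the annotation, list genes past the test and the 5 genes most alike to each member. A gene that this rule names is not reported here. Alternatives were RLE scaling, no filter, robust = FALSE, DESeq2 1.42.0, limma-voom (limma 3.58.1), a fit on only the groups compared, a block for library number, a Hoxa13 position term and leaving out each library. Leaving out IR+CF-2 2, IR 4 and Con 3 together was chosen after seeing the data.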

Additional observations from a re-analysis of the deposited data

How the results depend on the processing

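Against Con the members' direction was fixed by the rule that chose them, so their refits are values only. IR over Con ran from 6.25 to 7.28 for Atg9b and from 3.59 to 4.98 for the other 4. In IR+CF-2 against IR none of the 90 passed the threshold, and signs turned for Atg9b without IR 3 (0.06), for Grhl3 with limma-voom (0.21), with the 2 groups alone (0.02) and without IR+CF-2 3 (0.07), IR 2 (0.16) or IR 3 (0.36), for Bmp8b without IR+CF-2 2 (0.14) or IR 3 (0.15), and for Ms4a10 with limma-voom (0.03), with the replicate block (0.01) and without IR+CF-2 1 (0.15), IR 2 (0.01) or IR 3 (0.32). Leaving out single libraries gave -1.03 to 0.06 for Atg9b, 0.57 to 1.71 for Syt8, -0.46 to 0.36 for Grhl3, -0.67 to 0.15 for Bmp8b and -0.52 to 0.32 for Ms4a10. The position term gave -1.67 for Atg9b, -0.66 for Grhl3 and -2.07 for Ms4a10, and the replicate block -1.3 for Atg9b, -0.47 for Grhl3 and -1.18 for Bmp8b. The cause was not tested. Hoxa13 was highest in the IR+CF-2 libraries, so the position term can hardly be told apart from that group.

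The number of genes called moved more. In IR against Con 616 became 277 with RLE scaling, 339 without a filter, 2285 with DESeq2, 186 with limma-voom, 2307 with the 2 groups alone, 944 with the replicate block, 46 with the position term and 4811 with IR+CF-2 2, IR 4 and Con 3 left out. Leaving out single libraries gave 1 to 3085, with 2645 to 6337 at an unadjusted p under 0.05. Without IR+CF-2 1, 2 or 3 it was 391, 3085 or 86, and without IR 4 1191. In IR+CF-2 against IR 58 became 121 without a filter, 994 with DESeq2, 6 with the 2 groups alone, 6 with the replicate block, 0 with the position term (edgeR, with 470 at an unadjusted p under 0.05) and 883 without those 3 libraries, and single libraries gave 5 to 597. In IR+CF-2 against Con 3677 became 462 with the replicate block, 6 with the position term and 7621 without those 3 libraries, and single libraries gave 685 to 6721. Because Hoxa13 was highest in IR+CF-2, the position term does not separate position from group in the comparisons with IR+CF-2. In IR against Con the Hoxa13 ranges of the groups overlapped. The part of position in the fall from 616 to 46 genes was not tested.

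Nothing in the labels pairs libraries of equal number. Their deviations correlated at 0.259, 0.108 and 0.089 between IR and Con, where pairs of unlike number ran from -0.16 to 0.054. With IR+CF-2, pairs of equal number gave 0.04 to 0.202 and those of unlike number -0.211 to 0.256. Whether the mice were paired was not tested, so the replicate block is given as an alternative only. Depth limited Grhl3 most, with 8 to 16 counts in Con.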
